A study of Mus musculus with 6 samples.

Results

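The genes described here are a list of thymocyte and lymphocyte genes, measured in whole mouse thyroid tissue. Which cells carried their transcripts was not tested. The list holds 36 genes of the T cell receptor complex, thymocyte development and B cells, with 2 genes of the thymic epithelium, and its members were found by exact gene symbol among the 21878 genes of the count table. Of these, 34 were listed in the table, 33 had at least 1 read, and 17 passed the filter on low counts and were tested. Of the listed members 2, Ighm among them, were not matched, and Gata1 had 0 reads in each of the 6 libraries.

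RNA-seq was performed on thyroids of female mice at 12 weeks, with 3 mice in each group. The WT group is Thy-Tet1+/+ and the KO group is Thy-Tet1-/-, in which a Cre transgene directed at thyroid follicular epithelial cells removes a floxed part of Tet1; WT littermates served as controls and no treatment was given. The transgene is not directed at lymphoid cells. The extraction text attached to the samples speaks of retinas although the tissue label is thyroid, and the follicular cell genes, thyroglobulin among them, summed to between 192610 and 315710 CPM (reads of a gene scaled to the size of the library) per library. Libraries are called by their labels, so that WT 1 stands for the library labelled WT, replicate 1.

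T cells are made in the thymus, an organ that develops near the thyroid in the neck. Progenitors that enter it first rearrange the T cell receptor genes with the RAG recombinase, pass through a stage with a pre-T cell receptor, carry both CD4 and CD8, and then keep only one of these coreceptors as they mature and leave. Thymic epithelial cells, which depend on the transcription factor Foxn1, provide the signals and peptides for this selection. Rag1, Rag2, Dntt and Ptcra are used by developing lymphocytes and not by mature T cells, which makes them the members that separate thymocytes from lymphocytes of blood or lymph node.

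The libraries held between 8867683 reads in WT 1 and 19950898 in WT 2, and 3 counts were worth between 0.152 and 0.356 CPM. Tet1 itself, counted over the whole gene, was at 5.69, 3.80 and 3.44 CPM in WT 1 to WT 3 and at 9.37, 9.60 and 12.2 CPM in KO 1 to KO 3. The level of the targeted gene therefore went against the labels, with all KO libraries above all WT libraries (log2 fold change 1.28 ± 0.27 SE, edgeR quasi-likelihood adjusted p = 0.101), and the highest Tet1 level of each group stood in WT 1 and KO 3. Which part of Tet1 is deleted cannot be read from counts per gene. In whole tissue, fewer cells of a type and less RNA per cell cannot be told apart.

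The members set 2 libraries apart, 1 in each group. Summed over the 27 T lineage members in the table, the level was 350 CPM in WT 1 and 1394.5 CPM in KO 3, against 52.4 in WT 2, 47.8 in WT 3, 43.5 in KO 1 and 44.4 in KO 2. KO 3 thus carried most of these transcripts, WT 1 an intermediate amount, and the remaining 4 libraries lay close together at a low level. KO 3 was the highest library for 27 of the 27, and for 25 of them WT 1 was the second highest, the exceptions being Ccr7 and Il7r. Among all 17778 genes with any read, 4.2 percent had KO 3 highest and WT 1 second. Over the 34 members in the table the summed level differed 26.5-fold between the highest library, KO 3, and the lowest, KO 2.

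**Figure D1:**
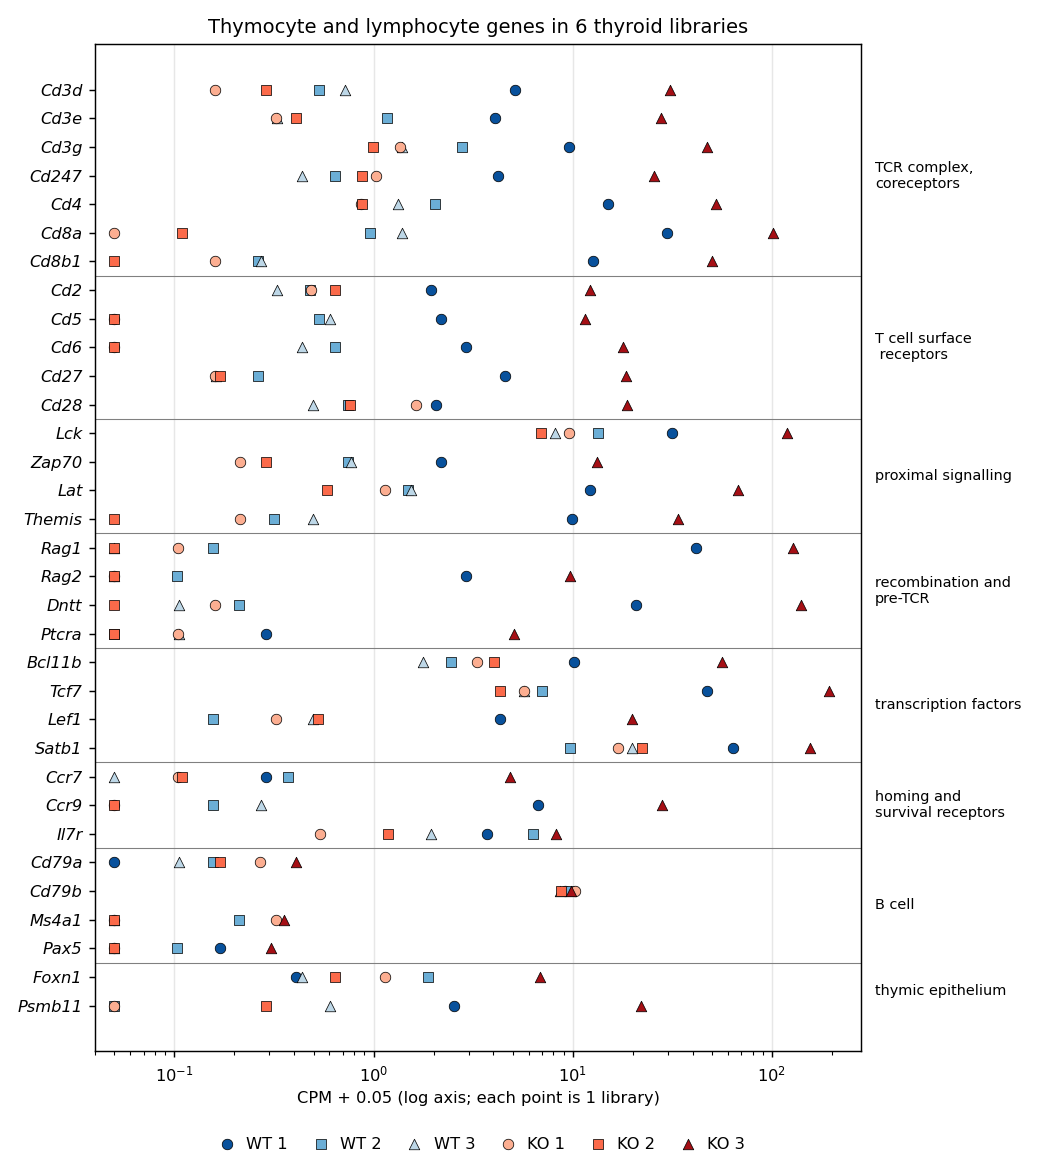
Level of each of the 33 members with reads, in CPM plus 0.05 on a log axis, with 1 point for each library and members grouped by role. KO 3 (dark red triangles) lies at the right for 32 members, followed by WT 1 (dark blue circles) for 27 of them, while Cd79b has all 6 libraries between 8.60 and 10.2 CPM.

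Genes of receptor rearrangement and the pre-T cell receptor showed the sharpest separation. Rag1 and Rag2 encode the subunits of the recombinase that cuts receptor gene segments, and they lie side by side on mouse chromosome 2 (GRCm38), Rag1 at 101638282 to 101649501 on the minus strand and Rag2 at 101624718 to 101632529 on the plus strand. Rag1 was at 41.5, 0.107 and 0 CPM in WT 1 to WT 3 and at 0.0545, 0 and 127 CPM in KO 1 to KO 3. These values are 350 reads in WT 1, 2506 reads in KO 3 and 3 reads in the other 4 libraries together. Pooled over those 4, the level was 3054 times lower than in KO 3, with a 95% counting interval from 1044 to 14820, which covers counting error only. Rag2 followed at a lower level, with 2.85 CPM in WT 1, 9.60 CPM in KO 3 and 1 read in the other 4 together. Some exon bases of both genes overlap another gene of the table, B230118H07Rik, by 80 bases for Rag1 and 208 bases for Rag2.

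Dntt encodes terminal deoxynucleotidyl transferase, which adds bases at the joins of rearranged receptor genes. It was at 20.8, 0.160 and 0.0555 CPM in WT 1 to WT 3 and at 0.109, 0 and 140 CPM in KO 1 to KO 3. Ptcra, the alpha chain of the pre-T cell receptor, was at 5.03 CPM in KO 3 and at 0.237 CPM in WT 1, where it rested on 2 reads. It had 1 read each in WT 3 and KO 1 and none in WT 2 and KO 2. None of the 4 genes passed the filter, because no more than 2 libraries held more than 3 reads of any of them. For each of Rag1, Dntt and Ptcra a two-sided exact permutation test of the log2 levels gave p = 0.9, and for Rag2 exact p = 1, where 3 against 3 libraries cannot go below 0.1.

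The DNA just upstream of these 4 genes is shown because they are high in the same libraries. The stretches are the last 150 bases before the RefSeq start of transcription, from windows of 300 bases on GRCm38.p6, read 5′ to 3′ on the gene's own strand. Capitals mark 4 kinds of letters searched on both strands: the E box CAGNTG, RUNX TGTGGT, TCF CTTTGA and ETS AGGAAG.
Rag1 (chr2:101649533-101649682, minus strand): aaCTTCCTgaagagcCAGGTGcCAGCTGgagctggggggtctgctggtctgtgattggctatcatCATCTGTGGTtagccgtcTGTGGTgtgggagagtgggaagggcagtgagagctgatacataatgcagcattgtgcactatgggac
Rag2 (chr2:101624562-101624711, plus strand): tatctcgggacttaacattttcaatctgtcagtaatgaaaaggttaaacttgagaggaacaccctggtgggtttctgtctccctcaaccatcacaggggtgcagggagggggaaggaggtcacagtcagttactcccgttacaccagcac
Dntt (chr19:41029125-41029274, plus strand): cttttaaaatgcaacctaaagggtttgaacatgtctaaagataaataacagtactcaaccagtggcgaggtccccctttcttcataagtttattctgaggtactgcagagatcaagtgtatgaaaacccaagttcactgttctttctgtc
Ptcra (chr17:46763713-46763862, minus strand): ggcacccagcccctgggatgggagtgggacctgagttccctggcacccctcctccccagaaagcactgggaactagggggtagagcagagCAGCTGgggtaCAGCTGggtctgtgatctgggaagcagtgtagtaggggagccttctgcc

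The Rag1 stretch held E box, RUNX and ETS letters, with 1 E box overlapping a RUNX match, and the Ptcra stretch held a pair of E boxes. The Rag2 and Dntt stretches held none of the 4, although their levels followed the same libraries. Over the full windows of the 21 T lineage members that had one, the E box stood in at least 1 window of 19 genes. Counted by window, it stood in 72.7 percent of 33 windows of these members and in 51.4 percent of all 32851 windows. For the others the shares were 15.2 against 16.8 percent for RUNX, 18.2 against 16 percent for TCF and 48.5 against 35.4 percent for ETS. A match is a run of letters and does not show that a factor binds there.

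Genes of the T cell receptor complex and its coreceptors followed the same 2 libraries. Cd3g, Cd3d and Cd3e, the signalling chains of the receptor, lie next to each other on chromosome 9, from 44969572 to 45009627. Cd3e was at 4.03, 1.12 and 0.277 CPM in WT 1 to WT 3 and at 0.272, 0.355 and 27.8 CPM in KO 1 to KO 3. Cd3d ranged from 0.109 CPM in KO 1 to 30.9 CPM in KO 3, and Cd3g from 0.948 CPM in KO 2 to 47.1 CPM in KO 3. WT 1 was second for each of the 3. Cd247, the zeta chain, was at 25.6 CPM in KO 3, 4.15 CPM in WT 1 and between 0.388 and 0.981 CPM elsewhere, and 3007 exon bases overlap Pou2f1 on the opposite strand.

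The coreceptors bind the MHC molecules beside the receptor. Cd8a was at 29.5, 0.909 and 1.33 CPM in WT 1 to WT 3 and at 0, 0.0592 and 101 CPM in KO 1 to KO 3. Its partner chain Cd8b1 was at 12.6 CPM in WT 1, 50.1 CPM in KO 3 and at most 0.222 CPM in the other 4. Cd4, the coreceptor of helper T cells, was high in the same 2 libraries, at 14.9 CPM in WT 1 and 52.2 CPM in KO 3. Cd4 in the other 4 lay between 0.817 and 1.98 CPM. Across the complex, none of the 6 tested members was called between the groups by adjusted p, where 0.113 percent of all tested genes were. Their log2 fold changes of KO over WT ran from 1.62 to 2.52, with SE from 1.52 to 2.27 and edgeR adjusted p between 0.430 and 0.724.

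Surface receptors of T cells had lower levels and the same order of libraries. Cd28, the receptor of the costimulatory signal, was at 2.02, 0.695 and 0.444 CPM in WT 1 to WT 3 and at 1.58, 0.711 and 18.7 CPM in KO 1 to KO 3. Its fold change was the largest among the tested members (log2 2.82 ± 1.30 SE, edgeR adjusted p = 0.300). WT 1 and KO 1 lay close together for this gene, and only KO 3 stood apart. Cd2, an adhesion receptor, and Cd27, a costimulatory receptor of the TNF receptor family, reached 12.2 and 18.4 CPM in KO 3. Cd5 and Cd6, related receptors that tune receptor signalling, were at 11.4 and 17.9 CPM in KO 3, at 2.14 and 2.85 CPM in WT 1 and at 0 reads in KO 1 and KO 2.

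Proximal signalling genes pass the signal on from the receptor. Lck, the kinase bound to CD4 and CD8, was at 31.4, 13.4 and 8.10 CPM in WT 1 to WT 3 and at 9.48, 6.87 and 118 CPM in KO 1 to KO 3. It was one of the members with many reads in every library, at least 116. Zap70, the kinase recruited to the receptor chains, was at 13.2 CPM in KO 3, 2.14 CPM in WT 1 and between 0.163 and 0.721 CPM elsewhere. The adaptor Lat reached 67.9 CPM in KO 3 and Themis, which is needed for the selection of thymocytes, 33.6 CPM. Themis had 16 reads in the 4 libraries other than WT 1 and KO 3.

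Among the transcription factors of the lineage, Tcf7 and Satb1 had the highest CPM of all members in KO 3. Tcf7 was at 47.1, 6.95 and 5.66 CPM in WT 1 to WT 3 and at 5.67, 4.27 and 194 CPM in KO 1 to KO 3. Scaled to the longest annotated transcript, it was also the member with the highest level in KO 3, at 78.4 CPM per kb, ahead of Dntt at 65.9 and Lck at 54.2. Satb1, a chromatin organiser of thymocytes that other cell types also use, was at 63.9, 9.68 and 19.7 CPM in WT 1 to WT 3 and at 16.9, 22.2 and 156 CPM in KO 1 to KO 3. Its level outside WT 1 and KO 3 was the highest of the 27 T lineage members. Bcl11b, which commits progenitors to the T lineage, was at 55.9 CPM in KO 3 and 10.1 CPM in WT 1, and Lef1, a relative of Tcf7, at 19.7 and 4.27 CPM. Gata1, at 0 reads, is a factor of red cell, mast cell and platelet precursors and not of T cells.

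Receptors for homing and survival were less uniform. Ccr9, the receptor for the thymic and gut chemokine Ccl25, was at 6.64 CPM in WT 1, 27.9 CPM in KO 3 and at 0 reads in KO 1 and KO 2. Ccr7, which guides maturing thymocytes and naive T cells, was at 4.78 CPM in KO 3 and at no more than 0.321 CPM in any other library, WT 1 included. Il7r, the receptor for interleukin 7, was at 3.68, 6.26 and 1.89 CPM in WT 1 to WT 3 and at 0.490, 1.13 and 8.23 CPM in KO 1 to KO 3. Il7r was thus the only T lineage member tested with a negative fold change (log2 fold change -0.26 ± 1.00 SE, edgeR adjusted p = 0.920), and WT 2 was above WT 1 for it.

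Of 4 B cell members in the count table, KO 3 was highest for 3, on no more than 7 reads each, and the only one with many reads was level across the libraries. Cd79b, a signalling chain of the B cell receptor, was at 9.14, 9.52 and 8.60 CPM in WT 1 to WT 3 and at 10.2, 8.65 and 9.70 CPM in KO 1 to KO 3. All 6 libraries overlapped, and the fold change was near 0 (log2 0.07 ± 0.18 SE, edgeR adjusted p = 0.877). The other chain of the same receptor, Cd79a, had between 0 and 7 reads, Ms4a1, which encodes CD20, between 0 and 6, and Pax5, the B lineage factor, between 0 and 5. Cd79b was therefore measured in every library with its partner chain at or near the limit of 3 counts. Cd79a had 0 to 2 reads in WT and 2 to 7 in KO, with 2 reads in both WT 2 and KO 2.

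Both thymic epithelial members were also highest in KO 3. Psmb11, a proteasome subunit of the thymic cortex, was at 2.49, 0 and 0.555 CPM in WT 1 to WT 3 and at 0, 0.237 and 22.0 CPM in KO 1 to KO 3. Foxn1 was at 0.356, 1.82 and 0.388 CPM in WT 1 to WT 3 and at 1.09, 0.592 and 6.81 CPM in KO 1 to KO 3. Foxn1 was lowest in WT 1, on 3 reads, so WT 1 held the thymocyte transcripts without a raised Foxn1 level. Among 8 further genes of the thymic epithelium, 7 were highest in KO 3, and WT 1 was second for 5 of these. The summed level of the 8 was 358 CPM in KO 3, 69.4 CPM in WT 1 and between 32.8 and 51.8 CPM in the others. The most abundant of these, the thymic protease Prss16, was at 154 CPM in KO 3, 13.8 CPM in WT 1 and between 0.599 and 4.99 CPM elsewhere, while Ly75 lay between 8.28 and 25.9 CPM in all 6.

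**Figure D2:**
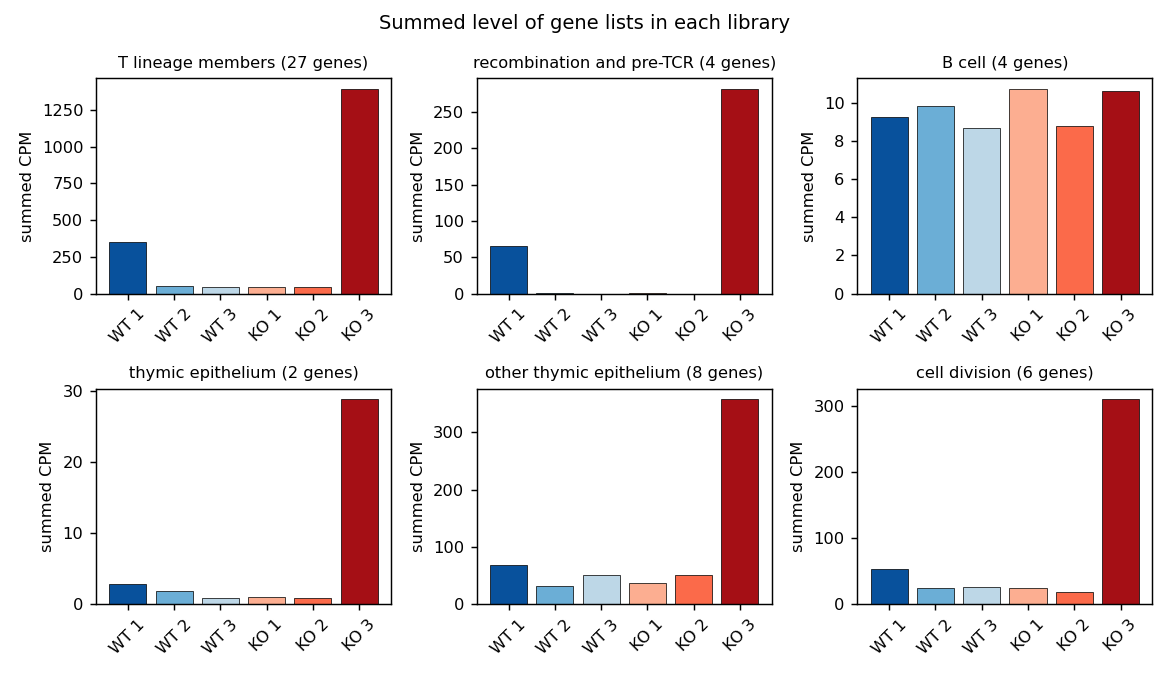
Summed CPM of gene lists in each of the 6 libraries, 1 bar per library, with each panel on its own axis starting at 0. KO 3 is highest in every panel except that of the B cell members, where all bars lie between 8.66 and 10.7 CPM.

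The ratio of KO 3 to WT 1 was not the same for all members, and reads from other cells in the tissue were not subtracted. Taken over the 27 T lineage members, the summed level in KO 3 was 3.98 times that in WT 1 (95% counting interval 3.83 to 4.14). The median of the ratios of single genes was 4.96 for these members. For all tested genes that median was 1.01, with 0.5 CPM added to each level. Rag1 stood at 3.07 (2.74 to 3.44), Cd8a at 3.42 (3.00 to 3.92) and Cd4 at 3.49 (2.90 to 4.24). Dntt stood at 6.76 (5.80 to 7.92), an interval that does not meet those of the other 3. Cd3e, at 6.89 (4.87 to 10.1), and Cd28, at 9.30 (5.73 to 16.1), were also above Rag1 beyond counting error. Ptcra and Ccr7 stood at 21.2 and 20.1, each from 2 reads in WT 1, with intervals from 5.72 to 177 and from 5.42 to 169. With 1 library of each kind, these are differences between 2 libraries and carry no replicate check.

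**Figure D3:**
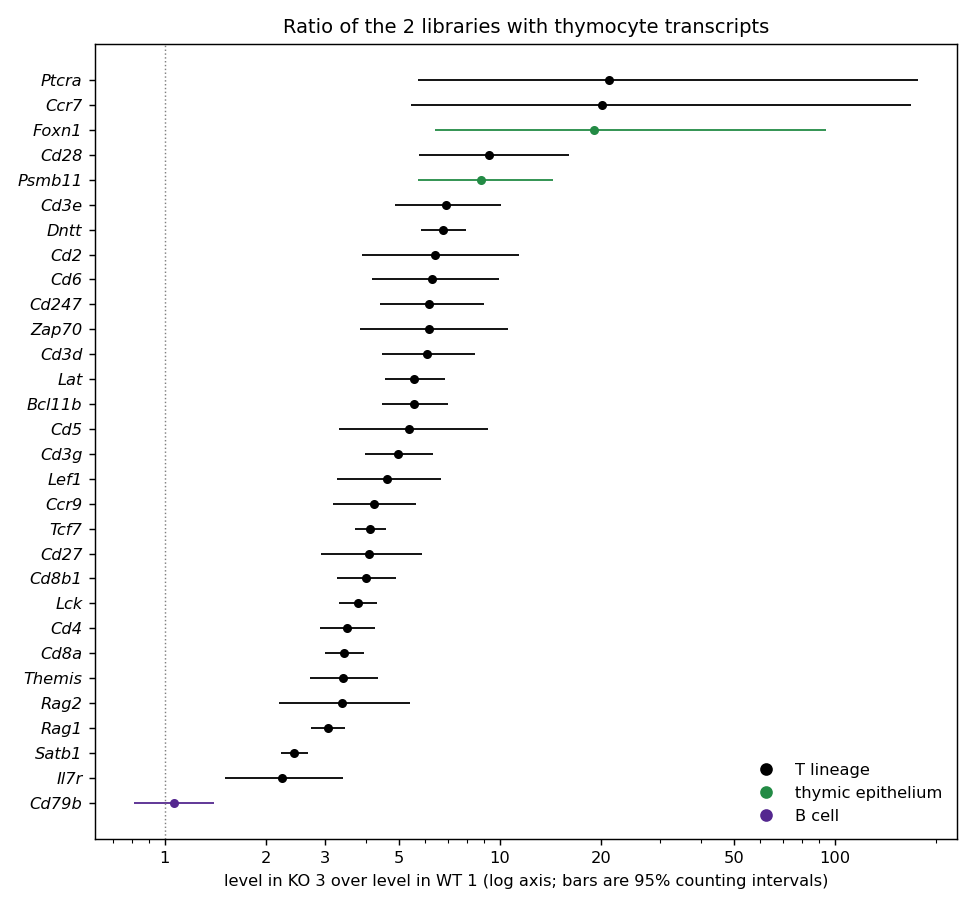
Level in KO 3 divided by level in WT 1 for the 30 members with at least 2 reads in WT 1, on a log axis, with 95% counting intervals. Cd79b lies at 1.06, Il7r and Satb1 at 2.24 and 2.43, Rag1 at 3.07, Dntt at 6.76, and the thymic epithelial members Psmb11 and Foxn1 at 8.81 and 19.1.

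Some other gene lists moved with KO 3 as well, and their part in the members' levels was not tested. Of 14 further thymocyte genes 9 were highest in KO 3, 8 of them with WT 1 second. Their summed level was 2158 CPM in KO 3 and between 2160 and 3368 CPM in the others. Cd24a made up most of this sum in every library, so the sum says little of the other genes. Cd24a, the most abundant, was lowest in KO 3, at 1594 CPM against 1767.5 to 3096 CPM elsewhere. Rmnd5a was at 183 CPM in KO 3 and between 122 and 158 CPM elsewhere. All 6 cell division genes were highest in KO 3 and second in WT 1, with a summed level of 310 CPM in KO 3, 53.6 CPM in WT 1 and between 19.0 and 26.2 CPM in the others. Mki67, a marker of dividing cells, was at 128 CPM in KO 3 and 28.4 CPM in WT 1, and Top2a at 106 and 13.1 CPM. Among 15 further T cell receptor signalling genes 13 were highest in KO 3, led by Coro1a at 117 CPM there and between 16.4 and 28.0 CPM in the other 5, and Ptprc at 114 CPM there and between 9.89 and 32.2 CPM. Of 6 genes of lymph node stroma 2 were highest in KO 3, Ltb at 16.4 CPM there against 0.610 to 3.32 CPM elsewhere, and Madcam1 on no more than 5 reads. Cxcl13 was lower in KO 3, at 17.2 CPM, than in any other library, and Ccl21a was at 17.1 CPM there, below the 24.4 CPM of KO 2. Glycam1 had 0 reads in all 6 libraries and Ccl19 no more than 17. The 8 myeloid genes and the 6 skeletal muscle genes had 0 members highest in KO 3. The muscle genes summed to 5959, 719 and 3580 CPM in WT 1 to WT 3 and to 82.6, 6350 and 15.2 CPM in KO 1 to KO 3.

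The comparison the study was designed for, KO against WT, called none of the members. Of 17 tested, 0 passed the limits used by the study, a fold change beyond 1.5 with an unadjusted p under 0.05, in either direction, against 9.2 percent of all 14143 tested genes (5.54 percent when only genes higher in KO are counted). By adjusted p under 0.05 the edgeR quasi-likelihood test again called 0 of 17, against 0.113 percent of all tested genes, and 0 had an unadjusted p under 0.05, against 18.9 percent. DESeq2, which withholds the p of a gene with an outlying count, gave no p for 11 of the 17, and for 97 of all 14143 tested genes. It called 0 of the 5 members with an adjusted p, against 9.54 percent of all such genes, and 1 of the 6 with a p had an unadjusted p under 0.05, against 20.5 percent. The groups did not overlap for 0 of the 17, against 26.8 percent of all. The fold changes of the tested members were nonetheless above 0 for 16 of 17, with a median of 1.92 on the log2 scale against 0.00 over all tested genes. The 17 passed the filter only where at least 1 further library held reads beside WT 1 and KO 3, so they do not stand for the full list.

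That direction rested on KO 3. Without it, 15 of the 17 tested members had fold changes below 0, the median was -1.95, and 4 were called lower in KO by the limits of the study (Cd8a, Cd3d, Zap70 and Il7r, each named after its value was seen), where 3.77 percent of all tested genes were called lower. Their edgeR adjusted p lay between 0.254 and 0.329. Without WT 1 in turn, the median of the 17 was 3.42 and 0 were called in either direction, where 1439 of all 14387 tested genes were. A single library thus set the sign of the comparison for most members.

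**Figure D4:**
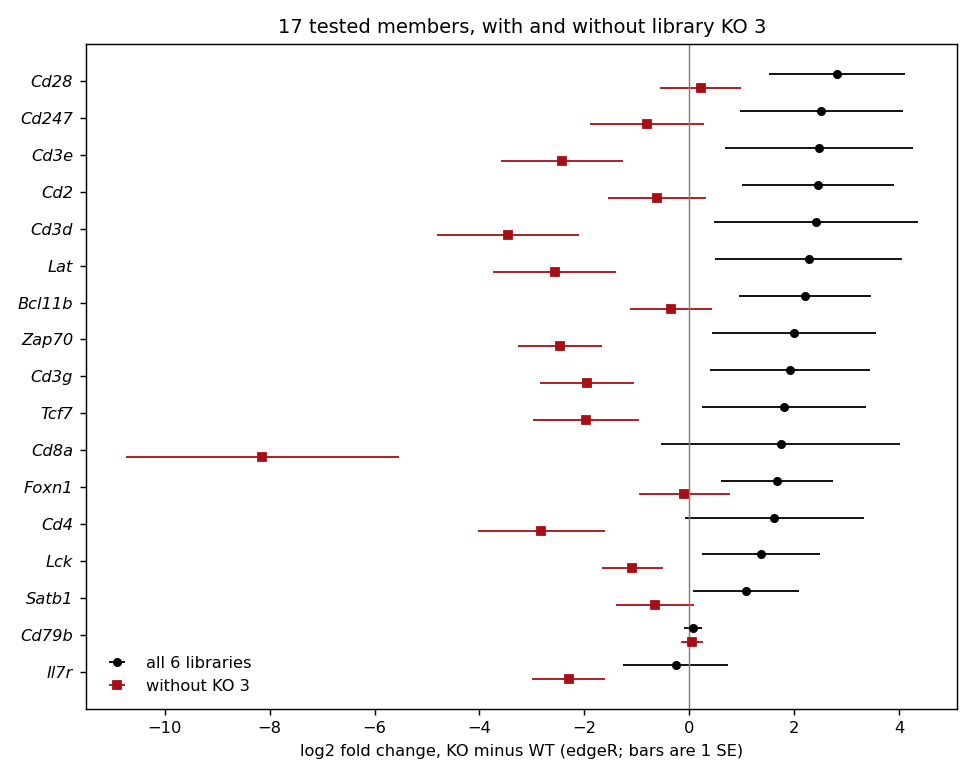
Log2 fold change of KO over WT for the 17 tested members with 1 SE, from all 6 libraries (black circles) and without KO 3 (red squares). With all libraries 16 of 17 lie above 0, and without KO 3, 15 of 17 lie below 0, while Cd79b stays within 0.07 of 0 in both.

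Setting aside both WT 1 and KO 3 leaves WT 2 and WT 3 against KO 1 and KO 2, an arrangement chosen after seeing the data. In these 4 libraries 12 of the 27 T lineage members were lower in both KO than in both WT libraries, where 24.7 percent of all genes with a read were, and 4 of 27 were higher in both KO, where 24.4 percent were. The 4 higher ones were Cd247, Cd2, Cd28 and Bcl11b. Cd8a had 41 reads in the WT pair and 1 in the KO pair, Cd5 19 against 0, Cd6 18 against 0, and Il7r 151 against 28. Of 14 members that could be tested there, 3 were called lower, Cd8a, Zap70 and Il7r, against 4.24 percent of all genes, with edgeR adjusted p of 0.158, 0.228 and 0.237. The Rag1, Rag2, Dntt and Ptcra counts in these 4 libraries, at most 3 reads in any of them, leave a difference between the genotypes not detectable at this depth.

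Of 19 genes of mature T and natural killer cells, 7 passed the filter on low counts. The groups did not overlap for 2 of the 7, S1pr1 and Klf2, against 26.8 percent of all tested genes. These 2 passed the limits of the study, both lower in KO, where 9.2 percent of all tested genes passed in either direction. Of the 19 genes 14 were highest in KO 3. Gzma, a granule protease of killer cells, reached 12.6 CPM in KO 3 and Ccl5, a chemokine of memory T cells, 12.2 CPM, both named after their values were seen. The most abundant genes of the list, S1pr1 and Klf2, which also serve endothelial cells, did not follow KO 3. S1pr1 was at 45.3, 44.8 and 46.1 CPM in WT 1 to WT 3 and at 23.5, 25.4 and 23.9 CPM in KO 1 to KO 3, and it fell (log2 fold change -0.90 ± 0.10 SE, edgeR adjusted p = 0.0466), the only gene of any list here that passed by adjusted p. That call was lost under 11 of 14 alternatives, with an adjusted p of up to 0.310, while the fold change stayed between -0.94 and -0.87 on the log2 scale. Klf2 was at 38.3, 54.2 and 54.5 CPM in WT 1 to WT 3 and at 28.0, 27.7 and 31.5 CPM in KO 1 to KO 3 (log2 fold change -0.76 ± 0.16 SE, edgeR adjusted p = 0.102).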

How the data were processed

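The authors deposited 1 table of read counts per gene for 3 WT and 3 KO thyroid libraries, from poly(A) RNA and mapped to mm10 per the labels; the aligner, the counter and its use of strand are not given in the sources used here. The members and gene lists were chosen with earlier results of these data known. Members were matched by exact symbol, after 27 symbols turned into dates by a spreadsheet were restored. The whole table was fitted with edgeR 4.0.16 (filterByExpr, TMM scaling, glmQLFit and glmQLFTest), leaving 14143 of 21878 genes, and p-values were adjusted over all of them. CPM use TMM-scaled library sizes. The biological coefficient of variation was 0.327, and no libraries were identical. Single genes that failed the filter were compared by a two-sided exact permutation test on log2(CPM + 0.5). The rule for named genes was every member, Tet1 and, for further lists, the 2 genes with the highest mean CPM. Genes named outside it were chosen after their values were seen: Ltb, Madcam1, Glycam1, Ccl19, Gzma, Ccl5 and those under the other observations. Alternatives were RLE scaling, DESeq2 1.42.0, limma-voom (limma 3.58.1), other filters, scaling to follicular cell genes, a replicate block and leaving out libraries. Exact binomial 95% intervals and the limit of 3 counts cover counting error only. Transcript lengths and overlaps came from a GRCm38 annotation, and upstream sequence from RefSeq (GRCm38.p6), with a window for 26 of 36 members. Scripts were tested on simulated data.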

Additional observations from a re-analysis of the deposited data

How the results depend on the processing

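Of 100 values of the counts, medians and summed level under an alternative, 76 stayed on the same side of their threshold, within 1.5 times for a count or within 1 SD between replicates for a median, an SD that is wide because of WT 1 and KO 3. Among tested members the median log2 fold change, 1.92 with all libraries, was -0.059 with the replicate block, -1.95 without KO 3 and -0.39 without both WT 1 and KO 3, the last chosen after seeing the data. Under limma-voom it was 0.70, with 3 of 17 below 0, and without 1 library it ran from -1.95 to 3.42. For the T lineage members, at 1.99, the values were -0.38 with the replicate block, -1.97 without KO 3 and -0.62 without both, with a range from -1.97 to 3.46 when 1 library was left out. For the B cell members, at 0.07 from Cd79b alone, the value was 1.17 with no filter on low counts, where 4 members entered, and from -0.0085 to 0.13 without 1 library. The members called by the limits of the study, 0 of 17, became 1 under DESeq2, of 6 with a p (Cd28, also called without KO 1 and without KO 2), 3 without both libraries and 0 to 4 without 1 library. By the same limits, all genes called were 1419 under DESeq2, of 14046 with a p, and 1503 of 14223 without both. They ran from 1074 of 14364 to 1502 of 14380 without 1 library. All genes called by adjusted p, 16, became 1210 under DESeq2, 25 with at least 10 counts in every library, 0 with scaling to follicular cell genes, 0 with the replicate block, 0 without both, and 0 to 1 without 1 library. At an unadjusted p under 0.05 these last fits held 1928, 1900 and 2708 genes.

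Single members moved with the same libraries. Cd8a, at 1.74, was at -1.71 under limma-voom, -2.01 with the replicate block, -8.14 without KO 3 and -4.99 without both, and ranged up to 4.90 without 1 library. Cd3e, at 2.47, was at -0.52 with the replicate block and -2.43 without KO 3, and ranged up to 3.74. Lck, at 1.37, was at -1.09 and -0.39 without KO 3 and without both, Foxn1, at 1.67, at -0.091 and -0.39, and Satb1, at 1.08, at -0.65 without KO 3. Their highest values without 1 library were 2.06, 2.89 and 2.14. Il7r, at -0.26, was at 0.26 without WT 2, 0.22 without KO 1 and 0.12 without KO 2, and was called at -2.30 without KO 3. Cd79b was at -0.0085 without KO 1. The cause of these changes was not tested beyond the library left out. Tet1 stayed above 0 and past the limits of the study under all 14 alternatives, from 1.14 to 1.52. The labels do not say whether replicate numbers pair the mice. Correlations of the deviations of same-numbered libraries from their group means were -0.17, -0.37 and -0.19, and such values cannot show how the mice were matched. With only 3 mice a group and 2 libraries that stand apart, a difference of these genes between genotypes was not resolved here.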

Other observations

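Over all genes, 104 met a rule drawn from the pattern of the members. It asked for KO 3 at least 4 times and WT 1 at least 2 times the highest of the other 4 libraries. At least 30 reads in KO 3 were also required. Where those 4 held 0 reads, any level in WT 1 met the rule, and Sprr3 and Cnfn met it at 0 CPM in WT 1. Others lay below 3 counts in WT 1, such as Serpinb3a at 0.119 CPM. Of these, 25 were members and 40 were in any list, so 64 were named in none. They were picked by these values and no test applies. Among them Myb, a factor of dividing thymocytes and other blood progenitors, was at 56.4 CPM in KO 3 and 12.8 CPM in WT 1, with at most 3.10 CPM elsewhere. Camk4, a kinase of thymocytes and neurons, was at 30.7 CPM in KO 3 and 8.30 CPM in WT 1, and at most 1.39 CPM elsewhere. Rrm2, which supplies nucleotides for DNA replication, was at 33.5 CPM in KO 3, 5.81 CPM in WT 1 and at most 2.66 CPM elsewhere.

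A further 180 genes stood out in KO 3 only, among them 2 members and 18 genes of any list. They included many genes of cell division. Of these, Kif11 was at 34.3 CPM in KO 3 and 3.56 CPM in WT 1, and Tpx2 at 22.0 and 2.37 CPM. Krt13 and Krt4, keratins of stratified lining epithelium such as the oesophagus, were also among the genes that stood out in KO 3 only. Krt13 was at 35.9 CPM in KO 3 and at no more than 0.474 CPM in any other library. Krt4 was at 34.8 CPM in KO 3 and at no more than 5.51 CPM in any other. WT 1 had 0.119 CPM of Krt13 and 1.31 CPM of Krt4, so neither of these keratins stood out in that library. Another keratin, Krt17, belonged to the genes that also stood out in WT 1. It was at 8.59 CPM in KO 3, 1.42 CPM in WT 1 and at most 0.610 CPM elsewhere.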
